A study of Mus musculus with 3 samples.

Results

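The genes described here are 48 genes of DNA replication and S phase entry, chosen by name from a table of 20677 gene rows, and all 48 were present. They were read in 3 RNA-seq libraries of skin mast cells sorted at postnatal week 1 from mice of mixed C57BL/6xCD1xFVB background. The libraries differ in the embryonic origin of the sorted cells. The early EMP library (early erythro-myeloid progenitor) came from Csf1rCre/EYFP mice given 4’OHT, the active form of tamoxifen, at E8.5. The late EMP library came from Runx1Cre/EYFP mice given the drug at E8.5, and the fetal HSC library (fetal haematopoietic stem cell) from Runx1Cre/EYFP mice given it at E9.5. All 3 groups thus carried a Cre driver and the EYFP reporter and received a pulse of 4’OHT. How many mice were pooled, and their sex, is not stated in the labels.

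Each origin has 1 library, so no difference below has a replicate check and no test was made. The early EMP library is also the only one with the Csf1r driver, so driver and origin cannot be told apart in comparisons with it. Sex-linked RNA differed as well: Xist was at 25.6 FPKM in early EMP, 0.53 in late EMP and 52.0 in fetal HSC. The Y-linked Ddx3y stood at 20.7, 38.5 and 0.32 FPKM in that order. Late EMP and fetal HSC share a driver but differ in these RNAs, so sex and origin cannot be told apart between them. This holds for every difference between these libraries below. Values are FPKM (fragment counts scaled to transcript length and library size), so levels of different genes are compared per length. Values of a gene are given in the order early EMP, late EMP, fetal HSC unless stated. The values imply depths of about 15600000, 15700000 and 17300000 fragments, an imprecise estimate.

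A cell copies its genome once per division in ordered steps. The origin recognition complex, Cdc6 and Cdt1 load the ring-shaped MCM2-7 helicase onto origins in G1, and geminin later blocks Cdt1 so that no origin is loaded again. Kinase activity then recruits Cdc45 and the GINS complex to the helicase, and polymerases alpha, delta and epsilon copy the strands with the sliding clamp PCNA. Many of these genes are targets of E2F transcription factors, which the retinoblastoma family holds in check before S phase. Mast cells of connective tissue are long-lived and granule-filled, and are known to divide in the skin of young mice.

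In the early EMP library most of these genes were at their lowest. Of the 48, 45 were lowest there, and 30 followed the order late EMP above fetal HSC above early EMP. Another 15 were highest in the fetal HSC library and lowest in the early EMP library. The exceptions were Orc1, which was lowest in the fetal HSC library, and Rfc2 and Rfc5, which were highest in the early EMP library. All 48 reached 1 FPKM in at least 1 library, the level required to be counted. In bulk RNA a smaller share of dividing cells and less of each RNA per cell cannot be told apart.

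**Figure D1:**
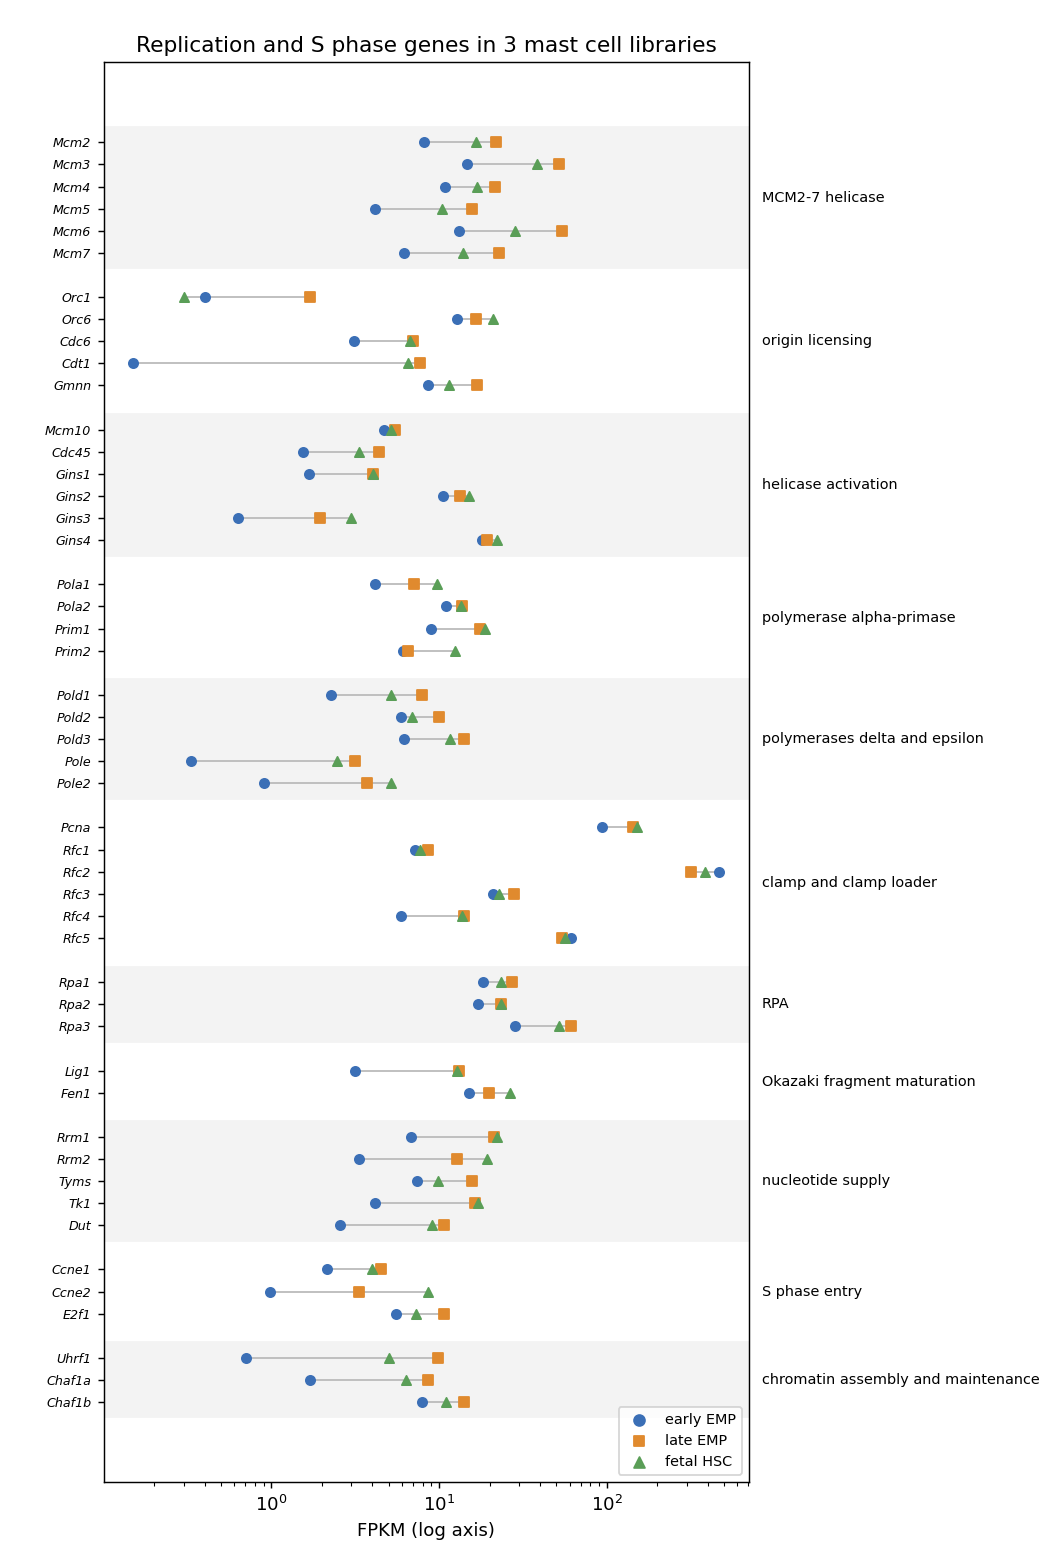
FPKM (log axis) of the 48 replication and S phase genes, grouped by role, with 1 symbol per library and a grey line from the lowest to the highest. The early EMP symbol lies at the left for 45 genes, and Cdt1 spans the widest range, from 0.15 to 7.74 FPKM.

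Fold changes below add 1 FPKM to each value before the log2 ratio, so differences of genes under a few FPKM are understated, and genes at least 2-fold apart on that scale were counted. Between late and early EMP, 22 of the 48 genes were at least 2-fold higher in the late EMP library, against 8.65% of the 14412 genes kept and 7.55% of the 11529 of these with a symbol. None was at least 2-fold lower, against 10.8% of all genes kept and 4.24% of those with a symbol. The median of the 48 was 0.94 on the log2 scale, with a range from -0.57 to 2.93, against a median of 0.00 for all genes kept. Tyms lies exactly on the 2-fold line at 1.00, and the nearest gene outside it was Cdc6 at 0.95.

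Between fetal HSC and early EMP, 18 of the 48 passed 2-fold with fetal HSC higher, against 8.19% of all genes kept and 8.08% of those with a symbol. None was at least 2-fold lower, against 17.8% and 8.6%. The median was 0.88, with a range from -0.29 to 2.72, against -0.11 for all genes kept. Mcm7 at 1.05 was just inside the 2-fold line and Prim1 at 0.99 just outside. This comparison and the one before share the early EMP library, so a chance feature of that library would enter both.

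Between the Runx1-Cre libraries 46 of the 48 genes lay within 2-fold, as did most genes kept, 12723 of 14412. Only Ccne2 was at least 2-fold higher in fetal HSC than late EMP, 1 of 48 against 3.46% of all genes kept and 2.73% of those with a symbol. Only Orc1 was at least 2-fold lower, 1 of 48 against 8.26% and 5.36%. The median was -0.14, with 31 genes below 0 and 17 above, against a median of -0.10 for all genes kept. The split depends on scaling: with median-of-ratios factors, which shift this comparison up by 0.13, it was 25 below and 23 above, and Orc1 then lay just outside the 2-fold line.

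**Figure D2:**
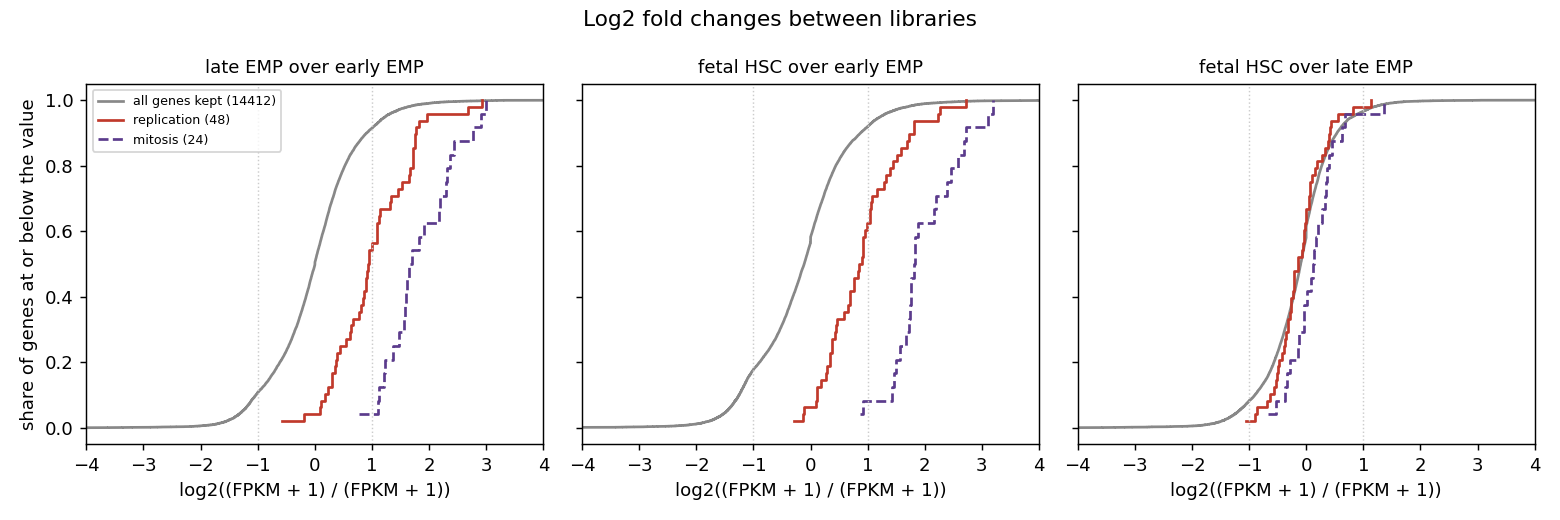
Cumulative share of genes (vertical axis) at or below each log2 fold change (horizontal axis) in the 3 comparisons, for all 14412 genes kept, the 48 replication genes and 24 mitosis genes. Dotted lines mark 2-fold. In both comparisons with early EMP the replication curve lies to the right of all genes and the mitosis curve further right, with medians of 0.94 and 1.67 for late over early EMP.

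The MCM2-7 helicase, the ring that unwinds DNA at the fork, had all 6 subunits lowest in early EMP. Mcm2 was at 8.08, 21.8 and 16.5 FPKM, and Mcm3 at 14.7, 51.8 and 38.3 FPKM. Mcm4 was at 10.8, 21.7 and 16.8 FPKM, and Mcm5 at 4.12, 15.8 and 10.5 FPKM. Each subunit was highest in late EMP. Mcm6 was at 13.1, 53.9 and 28.5 FPKM, and Mcm7 at 6.18, 22.8 and 13.9 FPKM. The 6 subunits summed to 57.0, 188 and 124 FPKM, which is 3.29 times more in late than early EMP and 2.18 times more in fetal HSC than early EMP.

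The 6 subunits form the ring in equal numbers, yet their RNAs did not stand at equal levels. The highest was 3.56, 3.41 and 3.67 times the lowest in the 3 libraries, with Mcm3 or Mcm6 at the top and Mcm5 at the bottom each time. Between the Runx1-Cre libraries all 6 were lower in fetal HSC than in late EMP, with a median of -0.49 and values from -0.90 for Mcm6 to -0.35 for Mcm4. All 6 remained below 0 under the 4 other scalings and both other pseudocounts tried, with medians from -0.55 to -0.36. The depth implied by the values gives counting intervals (95%, exact, counting error only) for the log2 ratios without a pseudocount of 4 subunits. They were -0.53 to -0.27 for Mcm2, -0.52 to -0.35 for Mcm3, -0.49 to -0.25 for Mcm4 and -0.86 to -0.57 for Mcm7. Mcm7 shares exon bases with Ap4m1 and Cops6 on the other strand, so its value is uncertain to that extent. Variation between animals or preparations is not in these intervals.

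**Figure D3:**
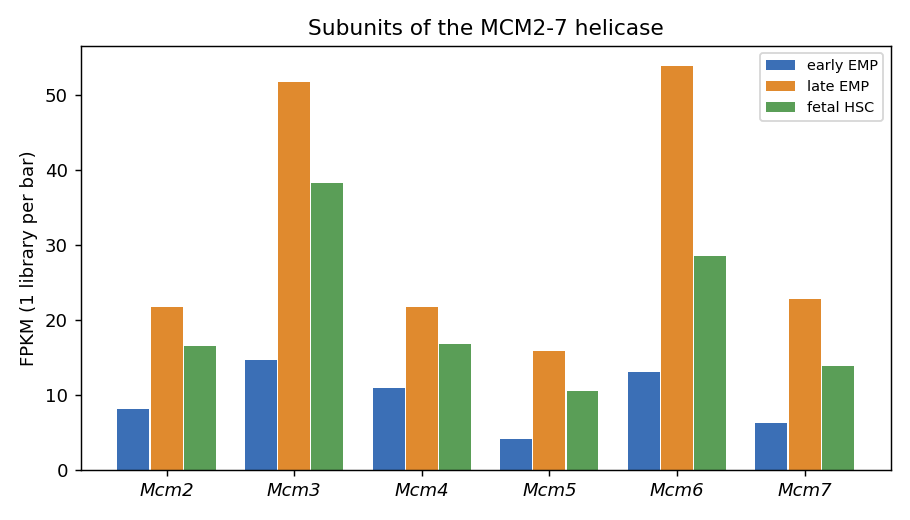
FPKM of the 6 subunits of the MCM2-7 helicase, with 1 bar per library and no error bars because each origin has 1 library. Every subunit is lowest in the early EMP library and highest in the late EMP library, from 4.12 FPKM for Mcm5 in early EMP to 53.9 FPKM for Mcm6 in late EMP.

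The promoters of these genes were read because the genes moved together and E2F is their known regulator. The E2F letters searched were TTTCCCGC, TTTGGCGC, TTTGCCGC and TTTCGCGC on both strands, from 250 bases before to 50 bases after the start in RefSeq (GRCm38.p6). Of the 39 genes with a promoter in that table, 15 held at least 1 match (38.5%), against 4.66% of 8893 kept genes with a promoter and 2.60% of all 27025 genes in the table. Some genes have more than 1 promoter there (45 for the 39 genes, 11279 for the 8893), and a match in any of them was counted. The CHR letters TTTGAA, known from genes of mitosis, were in 12.8% of the replication genes and 14.3% of the kept genes. In the 20 mitosis genes with a promoter these shares were turned round, with E2F letters in 1 gene and CHR letters in 75%. The CCAAT box, by the letters CCAAT, was in 59.0% of replication, 90.0% of mitosis and 43.3% of kept genes. A match describes letters in this window and does not show that a factor binds there.

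**Figure D4:**
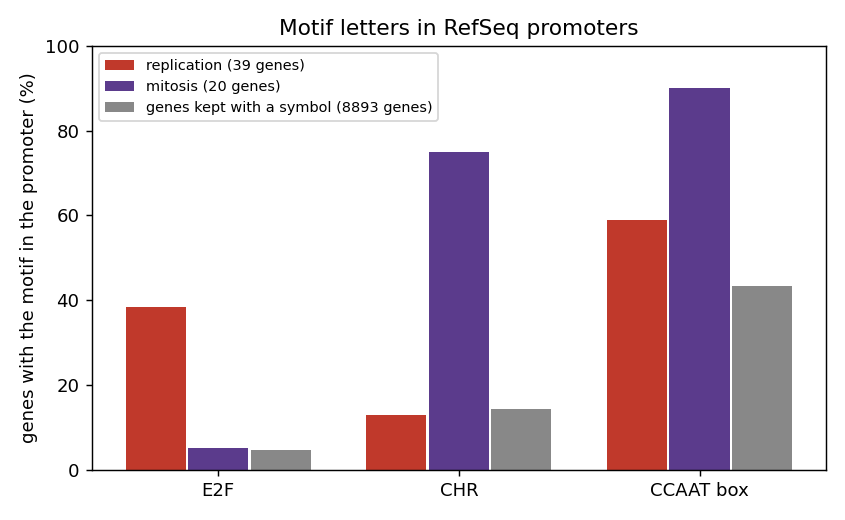
Share of genes (percent) whose RefSeq promoter holds the E2F, CHR or CCAAT box letters on either strand, for 39 replication genes, 20 mitosis genes and 8893 kept genes with a promoter. E2F letters are in 38.5% of replication genes and CHR letters in 75% of mitosis genes.

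Promoters of 5 genes hold 2 or more E2F matches. Of these, Mcm6 with the most is shown, with the 3 of highest summed FPKM among the 4 tied at 2 (Mcm5 is left out), matches in capitals, each 5′ to 3′ on the strand of the gene. Mcm6 lies on the minus strand at chr1:128359656-128359955 and holds 3 matches, of which 2 overlap, starting at -110, -106 and -47 from the gene start. Mcm3 (minus strand, chr1:20820263-20820562), Rfc3 (minus strand, chr5:151651159-151651458) and Mcm7 (minus strand, chr5:138171834-138172133) hold 2 each. The Mcm7 promoter shown belongs to a start inside the gene, whose outermost RefSeq start is at 138172111.
Mcm6: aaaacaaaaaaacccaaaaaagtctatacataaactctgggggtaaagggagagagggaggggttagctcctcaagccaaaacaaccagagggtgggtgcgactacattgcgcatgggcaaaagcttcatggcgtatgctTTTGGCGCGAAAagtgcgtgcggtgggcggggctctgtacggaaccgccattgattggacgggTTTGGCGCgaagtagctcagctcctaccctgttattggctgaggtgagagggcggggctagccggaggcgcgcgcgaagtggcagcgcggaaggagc
Mcm3: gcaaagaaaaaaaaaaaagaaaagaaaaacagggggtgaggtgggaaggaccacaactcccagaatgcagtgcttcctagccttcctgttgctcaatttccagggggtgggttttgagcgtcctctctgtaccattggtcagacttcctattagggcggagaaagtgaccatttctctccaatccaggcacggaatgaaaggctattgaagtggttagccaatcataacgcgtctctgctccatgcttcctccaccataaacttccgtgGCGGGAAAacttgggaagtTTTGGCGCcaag
Rfc3: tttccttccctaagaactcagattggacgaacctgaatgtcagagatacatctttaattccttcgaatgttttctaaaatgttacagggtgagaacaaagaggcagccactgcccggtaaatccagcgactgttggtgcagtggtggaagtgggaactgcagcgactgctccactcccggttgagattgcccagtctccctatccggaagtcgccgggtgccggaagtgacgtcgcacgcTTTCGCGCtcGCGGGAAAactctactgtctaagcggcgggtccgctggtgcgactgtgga
Mcm7: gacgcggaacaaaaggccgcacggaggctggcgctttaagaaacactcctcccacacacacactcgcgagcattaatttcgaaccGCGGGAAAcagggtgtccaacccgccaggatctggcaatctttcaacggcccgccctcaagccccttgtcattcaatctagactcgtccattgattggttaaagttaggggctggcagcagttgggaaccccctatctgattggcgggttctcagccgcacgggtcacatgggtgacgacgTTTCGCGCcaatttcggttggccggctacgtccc

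Besides the helicase genes, the set holds Rfc3, a clamp loader subunit, whose levels behaved otherwise. Rfc3 was at 21.0, 27.8 and 22.7 FPKM, under 2-fold apart in every comparison, although its promoter holds as many matches as those of Mcm3 and Mcm7. Of the 15 genes with E2F letters 10 were at least 2-fold higher in late than early EMP, with a median of 1.46. Of the 24 genes with a promoter but no match 10 were, with a median of 0.82. For fetal HSC over early EMP the numbers were 10 of 15 (median 1.07) and 6 of 24 (median 0.68). These are descriptions of the letters and of 1 library per origin, and the difference between the 15 and the 24 was not tested.

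Among the licensing factors, Cdt1 stood apart. Cdt1, which loads the helicase (chromosome 8, 122568015 to 122573130, GRCm38), was at 0.15, 7.74 and 6.56 FPKM. It was nearly absent from the early EMP library, where the implied depth gives about 5 fragments, against about 247 and 231 in the others. Its log2 ratio without a pseudocount was 5.69 between late and early EMP, with a counting interval of 4.38 to 7.26, and 5.45 for fetal HSC over early EMP (4.14 to 7.02). Gmnn, the geminin that inhibits Cdt1, was at 8.55, 16.8 and 11.5 FPKM. The ratio of Cdt1 to Gmnn was therefore 0.0175, 0.460 and 0.573 in the 3 libraries.

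The other licensing genes varied less. Cdc6, the ATPase that works with Cdt1, was at 3.11, 6.96 and 6.69 FPKM, so the other libraries lay close together and above early EMP. Orc6, a subunit of the origin recognition complex, was at 12.7, 16.5 and 21.1 FPKM, under 2-fold apart throughout. Orc1, the cell-cycle regulated subunit of the same complex, was at 0.40, 1.70 and 0.30 FPKM, low in every library and highest in late EMP. At these levels its log2 fold change of -1.05 for fetal HSC over late EMP was the lowest of the 48.

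Helicase activation genes included some of the steadiest. Mcm10, which helps start unwinding, was at 4.71, 5.43 and 5.14 FPKM, and Gins4 at 17.96, 19.4 and 22.1 FPKM. Gins2 was at 10.6, 13.4 and 15.0 FPKM, again within 2-fold. Gins2 shares 2758 of its 4097 exon bases with Gse1 on the other strand, which was at 6.17, 7.0 and 9.15 FPKM. The value of Gins2 is uncertain to that extent. Cdc45 was at 1.55, 4.40 and 3.31 FPKM, Gins1 at 1.68, 4.05 and 4.06 FPKM, and Gins3 at 0.63, 1.96 and 2.99 FPKM. GINS is a complex of its 4 subunits in equal parts, but the highest of their RNAs was 28.5 times the lowest in early EMP, 9.87 times in late EMP and 7.39 times in fetal HSC. Gins3 was the lowest of them and Gins4 the highest in each library. Only Cdc45 in late EMP (1.08) and Gins3 in fetal HSC (1.29) passed 2-fold over early EMP.

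Polymerase alpha-primase, which lays down the primers, had its highest sum in the fetal HSC library, with 30.3, 44.9 and 54.5 FPKM over its 4 genes. Prim2, the large primase subunit, was at 6.13, 6.57 and 12.4 FPKM, while its partner Prim1 was at 8.99, 17.6 and 18.9 FPKM. The EMP libraries were thus alike in Prim2 and apart in Prim1. The log2 ratio of Prim2 without a pseudocount for fetal HSC over late EMP was 0.92, with a counting interval of 0.66 to 1.17. Pola1, the X-linked catalytic subunit, was at 4.16, 7.04 and 9.68 FPKM, and Pola2 at 11.0, 13.7 and 13.5 FPKM. The median of the 4 genes for fetal HSC over late EMP was 0.25 and stayed above 0 under the other scalings and pseudocounts tried.

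The polymerases of the leading and lagging strand were at least 2-fold higher in late than early EMP in 4 of 5 genes. Pole, the catalytic subunit of polymerase epsilon, was at 0.33, 3.16 and 2.47 FPKM, and its partner Pole2 at 0.90, 3.70 and 5.16 FPKM. Pold1, the catalytic subunit of polymerase delta, was at 2.26, 7.96 and 5.19 FPKM. Pold3 was at 6.14, 14.2 and 11.7 FPKM, and Pold2 at 5.93, 9.96 and 6.90 FPKM, the smallest difference of the group. In fetal HSC only Pole and Pole2 passed 2-fold over early EMP. The catalytic subunits stood below these partners in every library, most so in early EMP. The ratio of Pole to Pole2 was 0.367, 0.854 and 0.479, and that of Pold1 to Pold2 0.381, 0.799 and 0.752. In early EMP Pole, at 0.33 FPKM, rests on about 36 fragments.

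The clamp and its loader contained the genes that went against the rest. Pcna, the sliding clamp, was at 93.6, 143 and 151 FPKM, among the top 5% of kept genes in each library and under 2-fold apart. Rfc2, a clamp loader subunit, was at 471, 317 and 386 FPKM and was by far the highest of the 48. Rfc5 was at 61.6, 53.8 and 56.4 FPKM. Rfc1, the large subunit, was at 7.17, 8.56 and 7.69 FPKM, and Rfc4 at 5.92, 14.0 and 13.6 FPKM, the only loader gene over 2-fold. Rfc4 shares 194 of its 1533 exon bases with Eif4a2 on the other strand, which was at 67.2, 101 and 77.0 FPKM. The value of Rfc4 is uncertain to that extent. The loader subunits work as a complex of equal parts, so the level of Rfc2 stands apart from its partners.

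The neighbour of Rfc2 was read because of that level. Lat2, which encodes a signalling adaptor abundant in mast cells, lies beside Rfc2 on the other strand and was at 1000 FPKM in early EMP, 687 in late EMP and 741 in fetal HSC. The ratio of Rfc2 to Lat2 was 0.471, 0.462 and 0.521. In GENCODE M21 (GRCm38, chromosome 5) Rfc2 runs from 134581366 to 134601805 and Lat2 from 134600022 to 134615025, and their exons share 952 bases. In RefSeq Rfc2 ends at 134598328 and Lat2 starts at 134600103, with no overlap. The sources used here do not say whether the counting used strand, and a part of Lat2 reads in the value of Rfc2 was not tested. Rfc5 shares 499 exon bases with Wsb2 on the other strand, which was at 58.5, 23.6 and 29.1 FPKM.

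Rfc2 decides the summed level of the genes but not their counts. All 48 summed to 950 FPKM, 1208 and 1204, a ratio of 1.27 for late over early EMP and 1.27 for fetal HSC over early EMP. Without Rfc2 the sums were 479, 890 and 818 FPKM, and the ratios 1.86 and 1.71. In all, 10 of the 48 share exon bases with a listed gene on the other strand, and values of these are uncertain to that extent. Among the remaining 38, 17 were at least 2-fold higher in late EMP and 13 in fetal HSC than in early EMP, with none lower. Ccne2 is among the 10: it shares 609 exon bases with Ints8, which was at 7.64, 4.16 and 7.85 FPKM.

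Replication protein A, which coats unwound DNA, was lowest in early EMP and highest in late EMP for all 3 subunits. Rpa1 was at 18.3, 27.4 and 23.5 FPKM, Rpa2 at 17.1, 23.6 and 23.4 FPKM, and Rpa3 at 28.2, 60.9 and 51.7 FPKM. Rpa3 in late EMP, at 1.08 on the log2 scale, was the only one over 2-fold. Fen1, the nuclease that trims Okazaki fragments, was at 15.2, 19.8 and 26.5 FPKM, under 2-fold throughout. Lig1, the ligase that seals them, was at 3.14, 13.2 and 12.7 FPKM, so it was about equal in the Runx1-Cre libraries and at 1.77 and 1.73 over early EMP.

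All 5 genes of nucleotide supply were at least 2-fold higher in late than early EMP, and 4 of 5 with median-of-ratios factors, without the 50 most abundant genes or with a pseudocount of 5 FPKM, since Tyms lies on the line. Rrm1 and Rrm2 form ribonucleotide reductase, which makes deoxynucleotides. Rrm1 was at 6.77, 21.3 and 22.2 FPKM, and Rrm2, the S phase subunit, at 3.35, 12.9 and 19.4 FPKM. The ratio of Rrm2 to Rrm1 was 0.495, 0.605 and 0.874. Tk1, the thymidine kinase of dividing cells, was at 4.14, 16.3 and 17.0 FPKM, and Dut, which removes dUTP, at 2.55, 10.6 and 9.10 FPKM. Tyms, the thymidylate synthase, was at 7.35, 15.7 and 9.81 FPKM, and was the only one of the 5 under 2-fold in fetal HSC over early EMP. The 5 genes summed to 24.2, 76.8 and 77.4 FPKM.

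The S phase entry genes did not all move alike. Ccne1 and Ccne2 encode the cyclins E that activate Cdk2 at the start of S phase. Ccne1 was at 2.15, 4.50 and 3.98 FPKM, while Ccne2 was at 0.98, 3.35 and 8.55 FPKM. Ccne2 was thus lower than Ccne1 in both EMP libraries and higher in fetal HSC, with ratios of 0.456, 0.744 and 2.15. Its log2 fold change of 1.13 for fetal HSC over late EMP was the highest of the 48 in that comparison. Ccne2 shares 609 of its 3495 exon bases with Ints8 on the other strand, which was at 7.64, 4.16 and 7.85 FPKM. The value of Ccne2 is uncertain to that extent. E2f1, an activator E2F, was at 5.50, 10.7 and 7.27 FPKM, under 2-fold in each comparison.

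The chromatin genes held a wide difference. Uhrf1, which brings the maintenance methyltransferase Dnmt1 to newly copied DNA, was at 0.71, 9.90 and 5.02 FPKM, or 2.67 and 1.82 over early EMP on the log2 scale. Dnmt1 itself was at 6.63, 13.7 and 10.9 FPKM, so the ratio of Uhrf1 to Dnmt1 was 0.107, 0.725 and 0.463. Chaf1a and Chaf1b encode subunits of CAF-1, which places histones behind the fork. Chaf1a was at 1.71, 8.63 and 6.39 FPKM, and Chaf1b at 7.90, 14.1 and 11.1 FPKM. Chaf1a shares 4648 of its 8854 exon bases with Ubxn6 on the other strand, which was at 16.5, 17.9 and 14.9 FPKM. Its value is uncertain to that extent. Uhrf1, Chaf1a and Chaf1b were all lower in fetal HSC than late EMP, under 2-fold, with a median of -0.38.

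**Figure D5:**
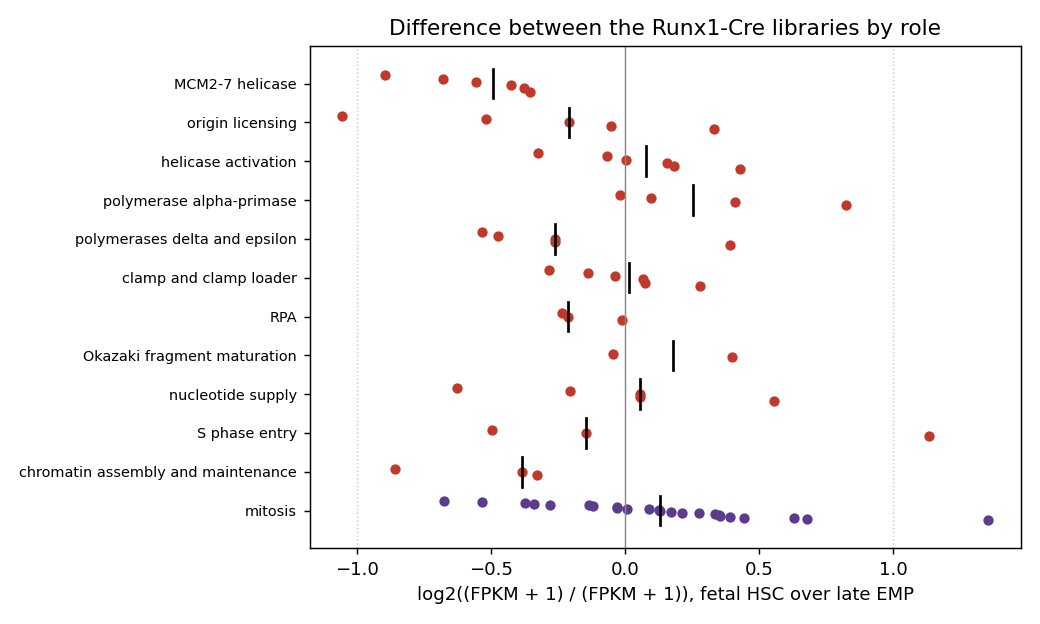
Log2 fold change of fetal HSC over late EMP (horizontal axis) for each gene, by role, with a black bar at the median of the role and dotted lines at 2-fold. The MCM2-7 genes have a median of -0.49, polymerase alpha-primase 0.25 and the 24 mitosis genes 0.13.

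The counts were also read by level, and their difference was not tested. The 24 genes below the members' median mean level of 11.0 FPKM included 13 at least 2-fold higher in late than early EMP, and the 24 above it 9. For fetal HSC over early EMP these counts were 11 and 7. The lower set of genes holds Cdt1, Uhrf1 and Pole, and the upper set Rfc2, Rfc5 and Pcna.

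Mitosis genes had larger medians than replication genes in the comparisons with early EMP. Late EMP was at least 2-fold above early EMP in 23 of 24 mitosis genes (median 1.67) and fetal HSC in 22 (median 1.82), with none lower. Of all genes kept, 8.65% and 8.19% were higher. The mitosis genes summed to 69.3, 338 and 364 FPKM. Birc5 (survivin), a chromosomal passenger protein, was at 4.11, 33.7 and 42.7 FPKM, and Kif11, a spindle motor, at 0.18, 7.86 and 9.74 FPKM. Between the Runx1-Cre libraries the mitosis median was 0.13 and that of the replication genes -0.14. There 1 of 24 mitosis genes (Hmmr) was at least 2-fold higher in fetal HSC, against 3.46% of all genes kept. The difference between the lists was not tested.

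Other genes of the pathway had smaller medians, a difference that was not tested. Of 27 kept fork and origin genes outside the 48, 7 were at least 2-fold higher in late than early EMP (median 0.47). None was at least 2-fold lower. The shares over all genes kept were 8.65% higher and 10.8% lower. In fetal HSC 6 were higher and 1, Orc2, lower (median 0.23), against 8.19% and 17.8% of all genes kept. Pclaf, a PCNA-binding factor, was at 1.10, 10.5 and 14.1 FPKM, Dbf4, the activator of the kinase Cdc7, at 2.89, 8.34 and 8.07 FPKM, and Wdhd1 at 0.39, 3.50 and 5.04 FPKM. The abundant Tipin and Pole4 differed by less than 2-fold, with Tipin at 25.7, 33.3 and 33.9 FPKM. Orc2, Orc3, Orc4 and Orc5 were each slightly lower in late than early EMP, from -0.32 to -0.15.

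Of 9 further genes of chromatin replication 4 were at least 2-fold higher in each comparison with early EMP (medians 0.94 and 0.83). The shares over all genes kept were 8.65% and 8.19%. Asf1b, a histone chaperone, was at 7.33, 36.1 and 42.1 FPKM, and Nasp, another, at 5.96, 18.9 and 15.5 FPKM. Cdca7, a partner of the remodeller Hells, was at 0.18, 8.53 and 4.82 FPKM. Of 17 other nucleotide supply genes 3 were at least 2-fold higher in late EMP and 2 in fetal HSC, against 8.65% and 8.19% of all genes kept, so the latter count is near the background, with Tk2, the mitochondrial thymidine kinase, at 249, 162 and 155 FPKM. In fetal HSC 1 was lower, Shmt2, a mitochondrial enzyme of the folate cycle, at 10.4, 16.4 and 4.38 FPKM.

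Control of the G1 to S transition was mixed. Of 21 kept genes 5 were at least 2-fold higher in late EMP and 2 in fetal HSC than in early EMP, with none lower (medians 0.32 and 0.13). The 2 in fetal HSC lie near the 8.19% of all genes kept, and the late EMP count stands against 8.65%. Myc, the growth-promoting factor, was at 1.59, 10.6 and 5.26 FPKM, and Rbl1, a retinoblastoma relative, at 5.45, 16.7 and 11.4 FPKM. Ccnd3, a cyclin D, was at 37.6, 78.5 and 41.2 FPKM, while Cdk4 was at 90.7, 118 and 102 FPKM. Of the 4 CDK inhibitors kept, 1 was at least 2-fold higher and 1 lower in late than early EMP, and 1 higher and none lower in fetal HSC. Over all genes kept these shares were 8.65% and 10.8% for late EMP, and 8.19% and 17.8% for fetal HSC. Cdkn1a was abundant at 215, 222 and 315 FPKM, and Cdkn1b was at 3.57, 8.5 and 15.8 FPKM. The lower one was Cdkn2c, at 5.19, 1.81 and 4 FPKM. Of 9 replication checkpoint genes 1 was higher and 1 lower in late than early EMP, and none was higher and 1 lower in fetal HSC, counts near the background shares. The lower one in both was Atr, the checkpoint kinase, at 12.6, 5.32 and 4.32 FPKM.

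The cells carried their labelled identity, since all 11 mast cell markers were present and summed to 217947, 187821 and 219229 FPKM. Markers of other cell types differed between the libraries too. Their counts stand against 8.65% higher and 10.8% lower of all genes kept for late over early EMP. For fetal HSC over early EMP these shares were 8.19% and 17.8%. The 5 granulocyte precursor markers in the table summed to 2.68, 53.3 and 126 FPKM, with 3 of the 4 kept higher and 1 lower in late than early EMP and all 4 higher in fetal HSC. Ltf was at 0, 0.02 and 0.02 FPKM, so near absent from every library, and S100a8 was at 0 in late EMP. Mpo was at 0.88, 39.2 and 47.9 FPKM. The 6 melanocyte markers summed to 31.8, 39.5 and 64.3 FPKM, with 4 of 6 at least 2-fold higher in each comparison with early EMP. Mitf, at 30.2, 25.8 and 23.6 FPKM, held most of the early EMP sum and was the only 1 of the 6 to fall. The sums thus understate the others: Pmel was at 1.05, 6.40 and 12.1 FPKM, and Mlana at 0, 2.23 and 17.6 FPKM. The 8 erythroid markers summed to 188, 27.9 and 22.7 FPKM, so as a sum they were highest in early EMP. Of the 6 erythroid markers kept, 3 were lower and 2 higher in late than early EMP, and 4 lower and 1 higher in fetal HSC. The higher ones in late EMP were Klf1, at 0.31, 3.85 and 1.13 FPKM, and Tfrc, at 1.98, 8.57 and 7.84 FPKM. The 7 macrophage markers summed to 79.3, 54.8 and 22.9 FPKM, with 1 higher and 1 lower in late EMP and 4 lower in fetal HSC than early EMP. The part of any of these in the replication values was not tested.

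The 6 keratinocyte markers summed to 1.00, 3.75 and 5.13 FPKM, with Krt14 at 0 in early EMP. Krt1 was at 0.03, 0 and 0 FPKM, so near absent from every library. The 5 fibroblast markers summed to 1.54, 6.97 and 3.22 FPKM and the 4 endothelial markers to 6.47, 7.34 and 4.99 FPKM. The 5 dendritic and Langerhans cell markers in the table summed to 4.21, 2.45 and 9.01 FPKM. In early EMP 1 marker alone held 4.0 FPKM of that sum, so the sum says little of the others. Of the 3 kept, 0 were at least 2-fold higher and 1 lower in late than early EMP. For fetal HSC over early EMP 2 were higher and 0 lower. The 6 T cell markers in the table summed to 16.4, 7.19 and 15.0 FPKM, with 2 of the 4 kept higher and 1 lower in late than early EMP, and 1 higher and 1 lower in fetal HSC. Cd3e was at 13.5, 0 and 0.63 FPKM, and Cd3g at 1.55, 5.36 and 12.02 FPKM. Of the other defining markers, Cdh5 was at 0.02, 0 and 0 FPKM, and Dcn was at 0 in early EMP. Their part was not tested either.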

How the data were processed

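Sorted skin mast cells gave total RNA, which was sequenced on the HiSeq platform, per the labels. For the 3 libraries the authors deposited a joint table of FPKM values, per the file headers. The submitters' processing notes name Bowtie2, RSEM, mm10 and GRCm38, without versions. FPKM is a share of the library, so abundant genes affect all others. The control column was matched to early EMP by its description.

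Genes at 1 FPKM or more in 1 library were kept, 14412 of 20677. Fold changes used a pseudocount of 1 FPKM. With 1 library per group no test was made. The 48 genes and the other lists were chosen with earlier results of these data known. All 48 may be named. Some marker results are not reported here. From each other list at most 6 genes at 5 FPKM or more in 1 library may be named, 2 by abundance and 4 by difference, and of marker lists also defining markers at 0. Lat2, Wsb2, Ints8, Ap4m1, Cops6, Gse1, Eif4a2, Ubxn6, Klf1, Dnmt1, Hmmr, the Orc genes and the sex-linked genes were named after their values were seen. Depth was estimated from the spacing of low values at single-transcript genes. The step and length offset that put most values within 0.15 of a whole fragment were taken (72.0%, 70.8% and 68.8%), a share that this choice raises, where a step fixed beforehand gives 30%. The folding and counting steps were tested on simulated data. Promoters came from RefSeq GRCm38.p6. The CHR and CCAAT letters were added after the data were seen. Alternatives were other pseudocounts, filters, scalings and folds. Leaving out Rfc2, or genes with an overlapping neighbour, was added after the data were seen. Computation used pandas 2.3.3 and numpy 2.4.6 under Python 3.11.15, intervals scipy 1.17.1 and plots matplotlib 3.10.9.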

Additional observations from a re-analysis of the deposited data

How the results depend on the processing

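Counts of genes at least 2-fold lower than early EMP stayed at 0 under every alternative tried, and counts of higher genes stayed within 1.5 times under the other scalings, filters and a pseudocount of 0.1 FPKM. With a pseudocount of 5 FPKM, 13 were higher in late and 7 in fetal HSC than in early EMP, with medians of 0.57 and 0.54. Between fetal HSC and late EMP that setting left 0 higher and 0 lower, with a median of -0.0884. At 1.5-fold, 35 and 32 genes were higher than early EMP, and 2 were higher and 5 lower in fetal HSC than late EMP. At 4-fold the counts were 2 and 3, and 0 and 0. Shares over all genes kept were counted only at the main settings. The counts under other folds, pseudocounts, filters and scalings therefore have no background beside them. The lower count for fetal HSC over late EMP went from 1 to 0 with the filter at 5 FPKM, which leaves out Orc1, and with median-of-ratios factors, which gave a median of -0.0262.

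The log2 ratio of summed FPKM for fetal HSC over late EMP was -0.0043. It turned to 0.13 with median-of-ratios factors and 0.0123 without the 50 most abundant genes, and was -0.0648 rescaled to the same total and -0.0693 over genes with a symbol. These steps rescale all genes alike. Without Rfc2 the log2 ratio of sums was 0.89 for late over early EMP. For fetal HSC it was 0.77 against early and -0.12 against late EMP. Without the 10 genes with an overlapping neighbour these were 1.0023, 0.83 and -0.17, and 0 genes were higher in fetal HSC than late EMP, since Ccne2 is among the 10. No paired analysis was possible because each group has 1 library. Genes under about 1 FPKM rest on few fragments, about 5 for Cdt1 and 36 for Pole in early EMP.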
